A study of Mus musculus with 5 samples.

Results

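Promoter regions that were open in all 5 stages of blood cell development from embryonic stem (ES) cells are described here. A DNaseI hypersensitive site (DHS) is a stretch of chromatin that the nuclease DNase I can cut. Each listed DHS was reduced to 500 bp around its middle. These windows were chained across stages where neighbours shared at least 25% of their length, and a chain counted as open in each stage that contributed to it. Members were selected on these measured positions: they held windows of MES, HB, HE, HP and MAC and had their centre within 2 kb of the transcription start site (TSS) of a RefSeq protein-coding gene (mouse build mm10). The rule gave 7471 members of 68846 merged regions in all, or 10.9% (95% Wilson interval 10.6 to 11.1%). They were 82.4% of the 9067 regions open in all 5 stages and 45.3% of the 16497 promoter regions. All intervals here cover counting error only.

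The stages were sorted from cultures of a single mouse ES cell line of strain 129, in which GFP reports Brachyury, a gene of early mesoderm (Bry.GFP). Mesoderm (MES) was Bry.GFP+ and FLK1-, hemangioblasts (HB) were Bry.GFP+ and FLK1+, hemogenic endothelium (HE) was labelled Bry.GFP+, Tie2+/Ckit+/CD41-, hematopoietic progenitors (HP) were CD41+ and macrophages (MAC), grown on from the CD41+ cells, were CD11b+. There was 1 list of sites for each stage, so no replicate error exists, no test was made, and differences between stages cannot be told apart from differences between libraries. The lists held 17734 (HP) to 37456 (MAC) sites as positions alone, with no height or read count, so the read depth behind a site is not in them and the absence of a site means that none was listed. Only the windows of 500 bp were chained, so a region not open in a stage can still be overlapped by a listed site of that stage. Read totals of the libraries were not used here. Amounts of DNase I were adjusted between digestions, and their part in the differences between lists was not tested.

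The promoter markers of the sorted populations followed their labels in part. Promoter regions of T were open in MES and HB, of Mesp1 in MES, HB and HE, of Kit in every stage but MAC, of Tek and Cdh5 in HE alone, of Itga2b in HE and HP, and of Itgam, Csf1r and Adgre1 in MAC alone. Gata1, a marker of the progenitors, had no listed promoter region in any stage. Kdr and Cd68 had one in every stage. The mesodermal genes Pdgfra and Mixl1 had one in MES, HB and HE and again in MAC.

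A promoter is the stretch around a TSS on which RNA polymerase II and the general factors assemble. In mammals many promoters lie in CpG islands, where the CG dinucleotide has kept its frequency and is largely free of methylation, and these serve most genes that every cell needs. Promoters of this kind carry short sites for widely expressed factors of the SP/KLF, ETS, NRF1, YY1, NFY and CREB/ATF families, whereas a TATA box is more usual at strongly regulated genes. Lineage genes are controlled to a larger extent by distal elements and by factors such as GATA1, RUNX1 and PU.1.

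The sequences below show what the members hold just upstream of the TSS. For each promoter motif shown, of 12 searched, the stretch was taken from the gene of the fixed lists whose 150 bases upstream of a TSS held most different motifs, outside every annotated exon. The search covered 415 such stretches of 401 genes, and none of them held the RFX motif. Sequences are from GRCm38.p6 (mm10), 5′ to 3′ on the strand of the gene, and capitals mark exact matches to a motif on either strand. The motif letters were GGGCGGG (SP/KLF), CCGGAAGT (ETS), GCGCATGCG (NRF1), AAGATGGCG (YY1), GCCAAT (NFY), TGACGTCA (CREB/ATF), CACGTG (E-box), TCTCGCGAG (ZBTB33), TACAATTCC (THAP11), TTCCCGCC (E2F), GTTGCCATG (RFX) and, for the box named after it, TATAAA. SP/KLF and E2F matches can overlap, as can E2F and NFY matches. A match is a description of the letters and not evidence of binding.
Polr2j encodes a subunit of RNA polymerase II (chr5:136116541-136116690, + strand) and is shown for ETS and NRF1. Taf13 encodes a subunit of the general factor TFIID (chr3:108571549-108571698, + strand) and is shown for the TATA box. H4c1 encodes a replication-dependent histone H4 (chr13:23761250-23761399, - strand) and is shown for SP/KLF, NFY, CREB/ATF and E2F. Prim1 encodes the catalytic subunit of the primase that starts DNA synthesis (chr10:128015065-128015214, + strand) and is shown for THAP11. Atf1 encodes a factor of the CREB/ATF family (chr15:100227709-100227858, + strand) and is shown for YY1. Eif3f encodes a translation initiation factor (chr7:108934265-108934414, + strand) and is shown for the E-box.
Polr2j: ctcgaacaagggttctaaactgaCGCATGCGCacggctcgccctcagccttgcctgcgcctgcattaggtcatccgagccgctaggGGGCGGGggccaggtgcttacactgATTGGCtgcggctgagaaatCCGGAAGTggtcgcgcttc
Taf13: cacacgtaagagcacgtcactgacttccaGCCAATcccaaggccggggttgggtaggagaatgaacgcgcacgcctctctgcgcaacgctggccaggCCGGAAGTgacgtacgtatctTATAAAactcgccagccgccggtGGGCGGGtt
H4c1: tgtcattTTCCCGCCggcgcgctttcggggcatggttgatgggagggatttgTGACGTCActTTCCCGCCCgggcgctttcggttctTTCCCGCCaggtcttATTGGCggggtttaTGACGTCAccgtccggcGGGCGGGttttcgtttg
Prim1: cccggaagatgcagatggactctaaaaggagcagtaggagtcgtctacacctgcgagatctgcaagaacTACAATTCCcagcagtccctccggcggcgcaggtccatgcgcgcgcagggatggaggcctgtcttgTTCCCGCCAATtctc
Atf1: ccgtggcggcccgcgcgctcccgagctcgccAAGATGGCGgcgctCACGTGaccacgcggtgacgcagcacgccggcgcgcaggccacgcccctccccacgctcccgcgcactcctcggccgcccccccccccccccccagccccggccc
Eif3f: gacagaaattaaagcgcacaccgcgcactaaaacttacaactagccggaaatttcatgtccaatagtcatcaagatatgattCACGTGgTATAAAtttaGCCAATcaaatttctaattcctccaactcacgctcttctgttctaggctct

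In Polr2j the NRF1, SP/KLF, NFY and ETS matches began 127, 64, 39 and 19 bases upstream of the TSS. The listed sites over this promoter were 1100, 1100, 1500, 1000 and 800 bp wide from MES to MAC (in the order MES, HB, HE, HP and MAC). H4c1 held 3 E2F matches, 2 CREB/ATF matches, 1 NFY match and 2 SP/KLF matches within its 150 bases. The TATA box of Taf13 began 32 bases upstream of its TSS. The site at Prim1 was 800, 800, 1300, 900 and 200 bp wide from MES to MAC.

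Of the 17 transcription factors whose binding the study profiled, the promoters of Elk4 and Lmo2 were members, and an upstream stretch of each is also shown. These stretches were not chosen for their motifs, as those above were, so the numbers of matches cannot be compared. Elk4 encodes an ETS factor that partners serum response factor (chr1:132007952-132008101, + strand), and Lmo2 an adaptor protein in the complex of TAL1 and GATA factors (chr2:103969407-103969556, + strand).
Elk4: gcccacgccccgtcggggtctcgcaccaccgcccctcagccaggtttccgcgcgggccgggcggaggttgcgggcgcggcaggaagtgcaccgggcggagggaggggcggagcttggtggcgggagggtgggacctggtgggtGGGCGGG
Lmo2: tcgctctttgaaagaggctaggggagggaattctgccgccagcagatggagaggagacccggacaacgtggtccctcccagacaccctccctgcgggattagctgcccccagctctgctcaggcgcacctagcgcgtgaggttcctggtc
The Elk4 stretch held 1 SP/KLF match directly before the TSS, and a stretch before another TSS of Elk4 held no match. The central 500 bp of the Elk4 region held SP/KLF and ETS matches. The Lmo2 stretch held no match to any of the 12 motifs, while the central 500 bp of the Lmo2 region, which lay nearer to another TSS of the gene, held an SP/KLF match.

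The members lay close around the TSS. Their length was 700 bp in the median and 510 to 1680 bp in all, and 7458 of them (99.8%) held exactly 1 site of each stage. The distance of the centre to the nearest coding TSS was 97 bp in the median (95% interval 95 to 100 bp), with 85.1% within 250 bp, 95.7% within 500 bp and 1.59% beyond 1 kb. The rule used this distance, so the values describe the members and are no test of them. At the edge of the rule, 9 members had their centre 1900 to 2000 bp from a TSS (median 1941 bp), while 5 regions open in all 5 stages lay just outside, by up to 100 bp (median distance 2060 bp). The smallest overlap in the chain was under 150 bp in 90 members and 400 bp in the median. By annotation, the centre was in an exon outside the coding part in 50.1% of members, in a coding exon in 12.7%, in an intron in 14.3% and outside genes in 22.9%.

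Promoter regions open in fewer stages lay farther away. The median distance was 124 bp for those open in 4 stages, 164 bp in 3, 217 bp in 2 and 589 bp in 1 stage. The last value joins stages that differ, from 252 bp (95% interval 197 to 326 bp) for MES alone, 340.5 bp for HB alone, 493 bp for HP alone and 570 bp for HE alone to 888 bp (824 to 968 bp) for MAC alone. Among the promoter regions open in exactly 4 stages, MAC was the missing stage in 803 (47.8%), HE in 487 (29.0%), HP in 263 (15.6%), MES in 92 (5.47%) and HB in 36 (2.14%). A missing stage is one with no window in the chain, and its sites can still lie beside or across the region. At Meis1, a region open in every stage but HE was overlapped in part by an HE site of 2100 bp. How often this occurred was not counted.

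Relative to the direction of transcription, the sites of 4 stages were centred on the TSS and those of HE were shifted into the gene. The median offset of the site middle from the TSS was -3 bp in MES and in HB, -21 bp in HP, -18 bp in MAC and 87 bp (downstream) in HE. The HE middle was upstream of the TSS in 33.2% of members, against 50.5 to 56.1% in the other stages. The site reached 728 bp upstream and 896 bp downstream of the TSS in the median in HE, against 511 and 504 bp in MES, 604 and 595 bp in HB, 563 and 517 bp in HP and 446 and 413 bp in MAC. Thus the HE sites extended on both sides and more so downstream. The TSS itself was covered in 93.8% (MAC) to 97.3% (HE) of members. Whether the HE profile belongs to the cells or to the HE library cannot be told apart with 1 list.

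**Figure D1:**
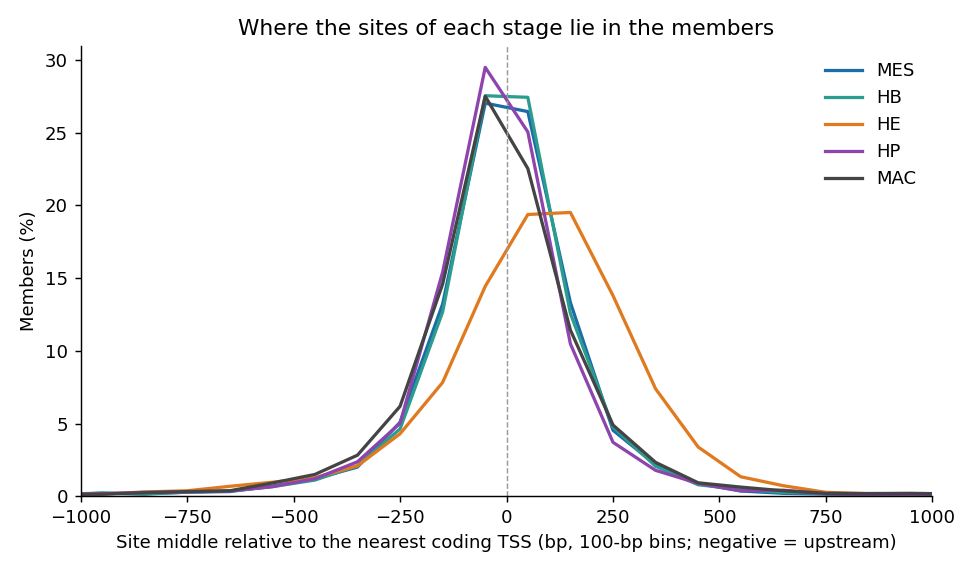
Position of the middle of the DHS of each stage relative to the nearest coding TSS (bp, bins of 100 bp, negative values upstream), as percent of the 7471 members. The MES, HB, HP and MAC curves peak at the TSS with medians between -21 and -3 bp, and the HE curve is broader and lies to the right, with a median of 87 bp.

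The 5 middles of a member spanned 200 bp in the median, with 13.1% spanning up to 100 bp and 4.08% (305 members) over 500 bp. MES and HB middles lay within 100 bp of each other in 82.7% of members, HP and MAC in 66.1%, and HE and MAC in 42.1%, the lowest of the 10 pairs. Starts and widths in every list fell on a grid of 100 bp, so shifts below that size are at the limit of the positions. The largest spans were at Bri3, a brain protein gene (1180 bp), Sfpq, a splicing factor gene (1089 bp), and Rybp, a subunit of Polycomb complexes (1009 bp). At Sfpq the site was 900, 1800, 2200, 1900 and 700 bp wide from MES to MAC.

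The members held 42.1% of the sites listed in HP, 34.1% of those in MES, 30.2% in HB, 22.4% in HE and 19.97% in MAC. Their sites were wide, and so took up more of the listed base pairs, from 29.3% in MAC and 30.2% in HE to 39.6% in HB, 45.9% in MES and 53.2% in HP. In the order MES, HB, HE, HP and MAC, used for all widths, the medians were 1100, 1200, 1600, 1100 and 900 bp. Other promoter sites of the same lists had medians of 700, 900, 1300, 800 and 500 bp. In each list the members' median exceeded the median of the whole list, by 1.38-fold in MES, 1.33-fold in HB and HE, 1.22-fold in HP and 1.5-fold in MAC. Sites listed away from promoters but also in all 5 stages had medians of 800, 1000, 1400, 900 and 700 bp, below the members in each list. Promoter sites found in a single stage were narrower again, at 400, 700, 1200, 500 and 400 bp from MES to MAC.

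**Figure D2:**
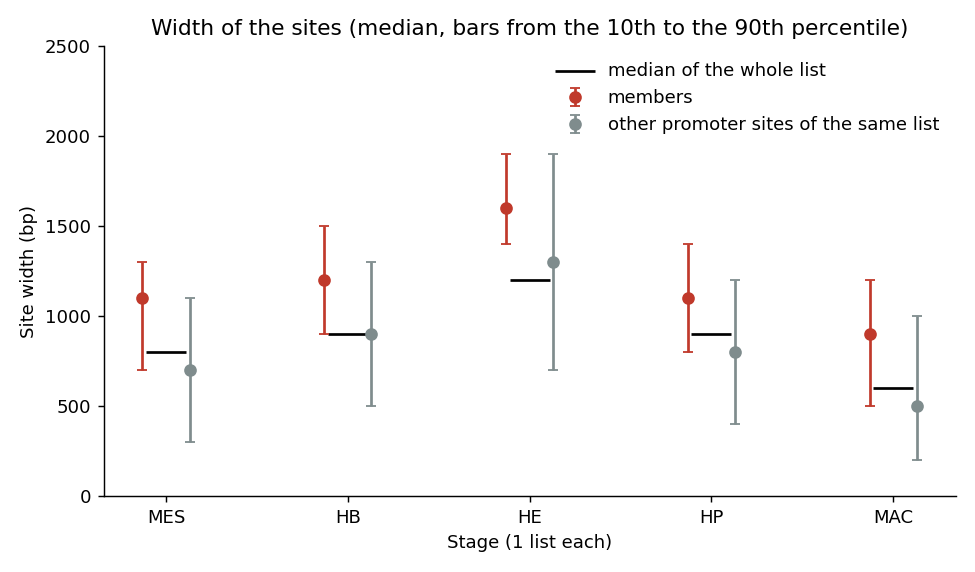
Width of the DHSs (bp) in each stage, with points at the median and bars from the 10th to the 90th percentile, for the members (red) and the other promoter sites of the same list (grey). Black lines mark the median of the whole list, and the members lie above it in each of the 5 lists.

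HE had the single widest site in 94.2% of members and MAC the single narrowest in 60.9%. Divided by the median of its own list, however, the MAC site was the widest in 53.5% of members and the HP site the narrowest in 38.2%. A member that was wide in one stage tended to be wide in the others: across the 7471 members, Spearman's rho of the width was 0.81 between MES and HB, 0.71 between MES and HP and between HB and HP, 0.62 between HP and MAC and 0.46 between HE and MAC. These correlations describe regions that share their sequence and their lists, and members are not replicates. Width had little relation to the CpG count of the central 500 bp, with rho from 0.087 in MAC to 0.22 in HE.

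Width relative to the lists was averaged over the stages as the geometric mean of width divided by the list median. It was largest at 5 members, with 2.65 at Impact, a regulator of translation under amino acid shortage, 2.61 at Ywhaz, a 14-3-3 protein, 2.49 at Crlf2, the receptor of thymic stromal lymphopoietin, 2.46 at Gapdh, the glycolytic enzyme, and 2.42 at Fmc1, an assembly factor of the mitochondrial ATP synthase. The regions of Impact, Ywhaz and Crlf2 were centred 1218, 1333 and 1282 bp inside the gene, and that of Fmc1 634 bp upstream of the TSS, so only that of Gapdh lay within 250 bp of one. The site at Gapdh was 1900, 2100, 2500, 2100 and 2000 bp wide from MES to MAC. Among the narrowest members were those at Myadm (0.44), Ntn5 (0.46), Pou4f2 (0.53) and Ext2 (0.53). The region of Pou4f2, a factor of sensory neurons, lay 1428 bp upstream of its TSS.

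Members were also ranked in each stage by width relative to the list median, against the median of this ratio over the other 4 stages. A leading member thus need not have its widest site in that stage. In MES the leading ones were Tbl1x, Foxf1 and Myadm. Foxf1, a forkhead factor of lateral mesoderm, had a site of 1000, 900, 400, 400 and 200 bp from MES to MAC. It was also among the leading ones in HB, next to Vps37d and the shared promoter of Ccdc116 and Ydjc. In HE the leading members were Zfp608, the shared promoter of Dhrs1 and Nop9, and Zfp770. The site of Zfp770, a zinc finger gene, was 300, 400, 1600, 500 and 300 bp wide from MES to MAC. In HP they were Gtf2h2, a subunit of TFIIH, Usf2, an E-box factor, and Gnpda2, whose site was wider still in HE. The Usf2 site was 300, 600, 800, 900 and 200 bp wide from MES to MAC. In MAC they were Cd6, a receptor of lymphocytes, Gsg1 and Slc25a45. The Cd6 site, whose centre lay 1777 bp upstream of the TSS, was 300, 400, 1100, 400 and 1100 bp wide from MES to MAC. These were picked as extremes of 7471 members and with 1 list per stage their widths have no error.

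Nearly all members were rich in CpG. A region was called CpG-rich if the GC share of its central 500 bp was at least 0.5 and its observed to expected CpG ratio at least 0.6. This held for 6623 members, or 88.6% (87.9 to 89.4%), with a median of 42 CpGs in 500 bp. The share fell with the number of open stages, from 74.0% (71.8 to 76.0%) of promoter regions open in 4 stages to 60.1% in 3, 49.9% in 2 and 31.8% (30.4 to 33.2%) in 1 stage. For windows of 500 bp on all coding TSS it was 50.5%. Regions open in all 5 stages but away from promoters were CpG-rich in 30.3% (28.1 to 32.6%). Among the members, the share was 90.7% with the centre within 250 bp of the TSS, 79.7% from there to 1 kb and 53.8% (44.8 to 62.5%) in the 119 beyond 1 kb.

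**Figure D3:**
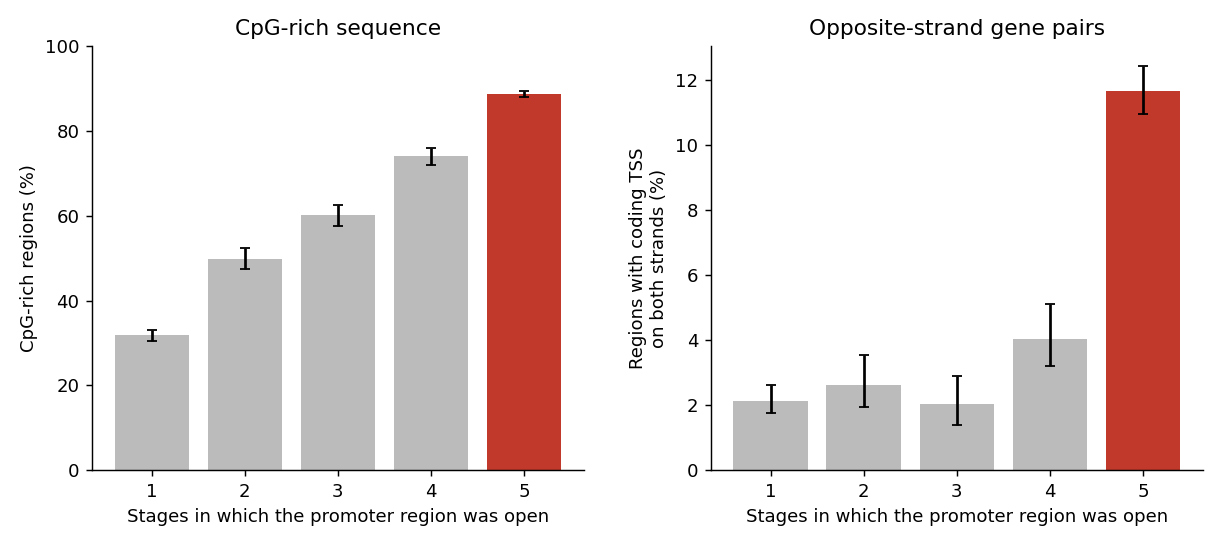
Share of promoter regions that are CpG-rich (left) and that have coding TSS of both strands, within 1 kb of each other, inside 2 kb of their centre (right), by the number of stages in which the region was open, with 95% Wilson intervals. The members (red) reach 88.6% and 11.7%, against 31.8% and 2.14% for regions open in 1 stage.

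Sequence motifs were counted as exact matches on both strands of the central 500 bp. SP/KLF was found in 63.5% of members, NFY in 27.4%, the E-box in 15.5%, ETS in 12.6% (11.9 to 13.4%), E2F in 7.90%, YY1 in 6.16%, NRF1 in 5.53%, CREB/ATF in 4.89%, ZBTB33 in 2.36%, RFX in 1.16% and THAP11 in 1.03%. In windows of the same length on all coding TSS these shares were 41.9, 20.7, 10.6, 5.89, 4.635, 2.81, 2.5, 2.61, 1.05, 0.915 and 0.585%. The shares depend on the length searched, and in the central 200 bp of the members they were 37.34% for SP/KLF, 14.35% for NFY and 7.01% for ETS. With the letters read in reversed order, matches fell to 1.95% of members for ETS, 0.228% for YY1, 0.161% for NRF1 and 6.67% for NFY. E2F fell less, from 7.90% (7.31 to 8.53%) to 6.38%. The SP/KLF letters read the same in both orders, so this comparison says nothing there.

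Promoter regions open in fewer stages differ in CpG content and distance, so the motifs were also compared among CpG-rich regions centred within 250 bp of a TSS. ETS was then present in 14.6% of 5764 members (13.7 to 15.5%), in 7.32% of 984 regions open in 4 stages (5.85 to 9.12%) and in 2.79% of 538 regions open in 1 stage (1.70 to 4.55%). NRF1 showed the same order with 6.49, 2.44 and 0.929%, as did YY1 with 7.10, 4.17 and 1.49%, NFY with 27.5, 21.5 and 10.2%, CREB/ATF with 5.45, 3.86 and 1.49% and ZBTB33 with 2.81, 1.02 and 0.558%. E2F had the order as well, with 8.38, 7.42 and 6.51%. So did the E-box, with 16.0, 15.65 and 10.78%, and THAP11, with 0.989, 0.508 and 0.372%, but not RFX, with 1.13, 1.22 and 0%. The intervals of members and regions open in 4 stages were apart for ETS, NRF1, YY1, NFY and ZBTB33. They overlapped for CREB/ATF, E2F, the E-box and THAP11. SP/KLF did not show this order, with 66.7% of members (65.5 to 67.9%), 71.6% of regions open in 4 stages (68.8 to 74.4%) and 65.2% of those open in 1 stage (61.1 to 69.1%). CTCF, the insulator factor, had its motif in 3.07% of members (2.66 to 3.55%), below the 5.28% of regions open in 4 stages (4.05 to 6.86%).

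Motifs of GATA, RUNX, PU.1, AP1 and TEAD factors had lower shares among members than among the other promoter regions. The letters AGATAA, bound by GATA factors, were found in 5.77% of members and 12.6% of promoter regions open in 1 to 4 stages, RUNX (TGTGGTT) in 4.23 and 7.27%, PU.1 (GAGGAAGT) in 3.68 and 4.96%, AP1 (TGANTCA) in 5.52 and 11.1%, and TEAD (CATTCC) in 15.6 and 20.7%. The TATA box was in 5.01% of members and 9.98% of these other regions. Among the CpG-rich regions within 250 bp the shares were closer. GATA was in 5.08% of members and 5.79% of regions open in 4 stages, AP1 in 4.93 and 4.47%, RUNX in 4.15 and 3.66%, PU.1 in 3.73 and 2.44%, and TEAD in 14.8 and 16.1%, with overlapping intervals. Reversed letters were in 4.95% of all members for the TATA box and 5.31% for AP1, within the intervals of the motifs' own shares. For GATA they were above its interval, at 6.67%. For RUNX (3.45%), PU.1 (2.64%) and TEAD (12.6%) they were below. Of the 11 promoter motifs other than the TATA box, 1077 members (14.4%) held none, 39.98% held 1, 31.5% held 2 and 11.6% held 3. Of the promoter regions open in 1 to 4 stages, 43.2% held none.

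**Figure D4:**
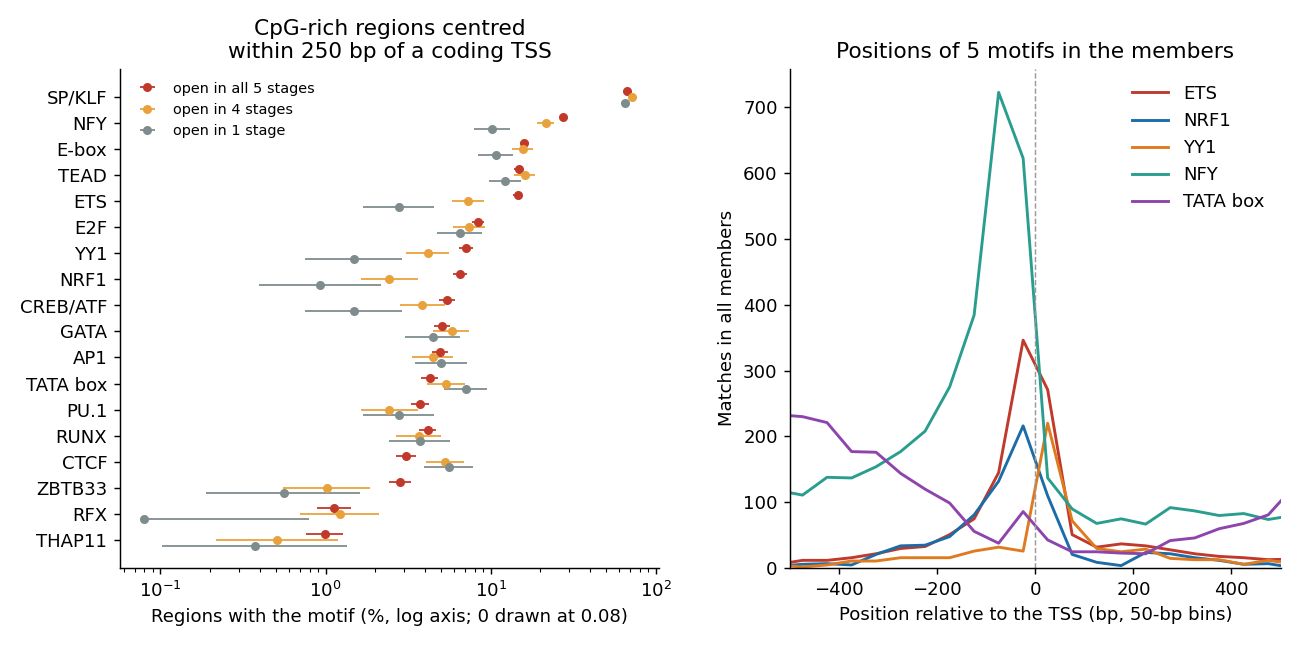
Left, share of CpG-rich regions centred within 250 bp of a coding TSS that hold each of 18 motifs (percent, log axis, 95% Wilson intervals) for regions open in all 5 stages (red), 4 stages (orange) and 1 stage (grey), and right, number of matches of 5 motifs by position relative to the TSS (bins of 50 bp) in all members. ETS, NRF1, YY1, NFY and ZBTB33 are highest in the members, SP/KLF is highest in regions open in 4 stages, and YY1 peaks just downstream of the TSS while NFY peaks upstream.

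The motifs were also placed relative to the TSS, over 1 kb on each side of it. ETS, NRF1 and ZBTB33 matches were most frequent in the 50 bp before the TSS, with 346, 216 and 123 matches there against medians of 5.5, 2 and 0 in the outer bins of 50 bp. NFY peaked 100 to 50 bp upstream with 722 matches against 106. YY1 differed from these, since its peak lay in the first 50 bp downstream with 220 matches against 3. Of these 220 matches, 193 (87.7%, interval 82.7 to 91.4%) were in the direction of the gene, whereas YY1 matches in the 150 bp upstream were in that direction in 52.4% (41.8 to 62.7%). TATA boxes in the 150 bp upstream were in the direction of the gene in 66.7% of 180 matches (59.5 to 73.1%). In the first 50 bp downstream the share was much the same, at 65.1% of 43 matches (50.2 to 77.6%). Of all TATA box matches 2.69% lay in the 150 bp upstream, and the fullest bin was 1000 to 950 bp upstream, with 360. The 50 bp before the TSS held 86, against 38 in the bin before. GATA, RUNX, AP1 and TEAD matches had no peak near the TSS, with 2.57, 4.42, 4.75 and 5.35% of matches in the 150 bp upstream, against 40.0% for ETS and 49.7% for NRF1. PU.1 differed from these 4, with 11.5% of matches there. Its fullest bin was the 50 bp before the TSS, with 42 matches against 23 in the outer bins.

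NFY was found in 28.3% of the members with SP/KLF and in 27.4% of all members, and NRF1 in 6.57% of those with ETS and 5.53% of all. NFY was less frequent among members with ETS, at 20.1%, and among those with NRF1, at 18.6%. No interval was computed for these shares.

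Of 21000 protein-coding genes, 8341 had a member within 2 kb of a TSS, which is 39.7% (39.1 to 40.4%). A promoter region in any stage was listed for 67.3% of genes. One gene was in reach of 6497 members, and 2 genes were in reach of 963. The share of genes with a promoter region in a single given stage was 49.9% in HP, 50.3% in MAC, 57.0% in MES, 58.5% in HB and 61.0% in HE. A region was listed in each of the 5 stages for 9106 genes, of which 765 had no member, since no single promoter region held all 5 stages.

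Genes of shared cell functions had members more often than the 39.7% of all genes. The gene lists were sets of gene symbols, chosen with earlier results of these data known, and the members came from the site lists. The counts are thus descriptions. Of the aminoacyl-tRNA synthetases, which charge tRNAs, 36 of 37 had a member and Vars lacked one. The DNA replication factors had 28 of 29, with Pola2 missing, and the nuclear pore proteins 25 of 26, with Nup160 missing. Vars and Pola2 had sites listed in all 5 stages in separate regions, while Nup160 had none in any stage. Members were found for 77 of 86 cytosolic ribosomal proteins (89.5%), 49 of 55 translation initiation factors and their regulators (89.1%), 63 of 71 subunits of RNA polymerase II and general factors (88.7%), 39 of 45 splicing factors (86.7%), 66 of 78 mitochondrial ribosomal proteins (84.6%), 70 of 85 oxidative phosphorylation subunits (82.4%), 38 of 48 proteasome subunits (79.2%) and 53 of 67 chaperones (79.1%). The shares were lower for vacuolar ATPase subunits, at 15 of 24 (62.5%), ubiquitin-conjugating enzymes, at 18 of 31 (58.1%), and replication-dependent histones, at 35 of 62 (56.5%). The histones fell to 19.35 and 32.26% when only the wider or the widest sites of each list were used, below the 29.86 and 32.84% of all genes under these settings. The ubiquitin-conjugating enzymes fell to 35.48% with the wider sites and reached 77.42% with deposited intervals. The interval of the ubiquitin-conjugating enzymes, 40.8 to 73.6%, began just above the share of all genes.

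**Figure D5:**
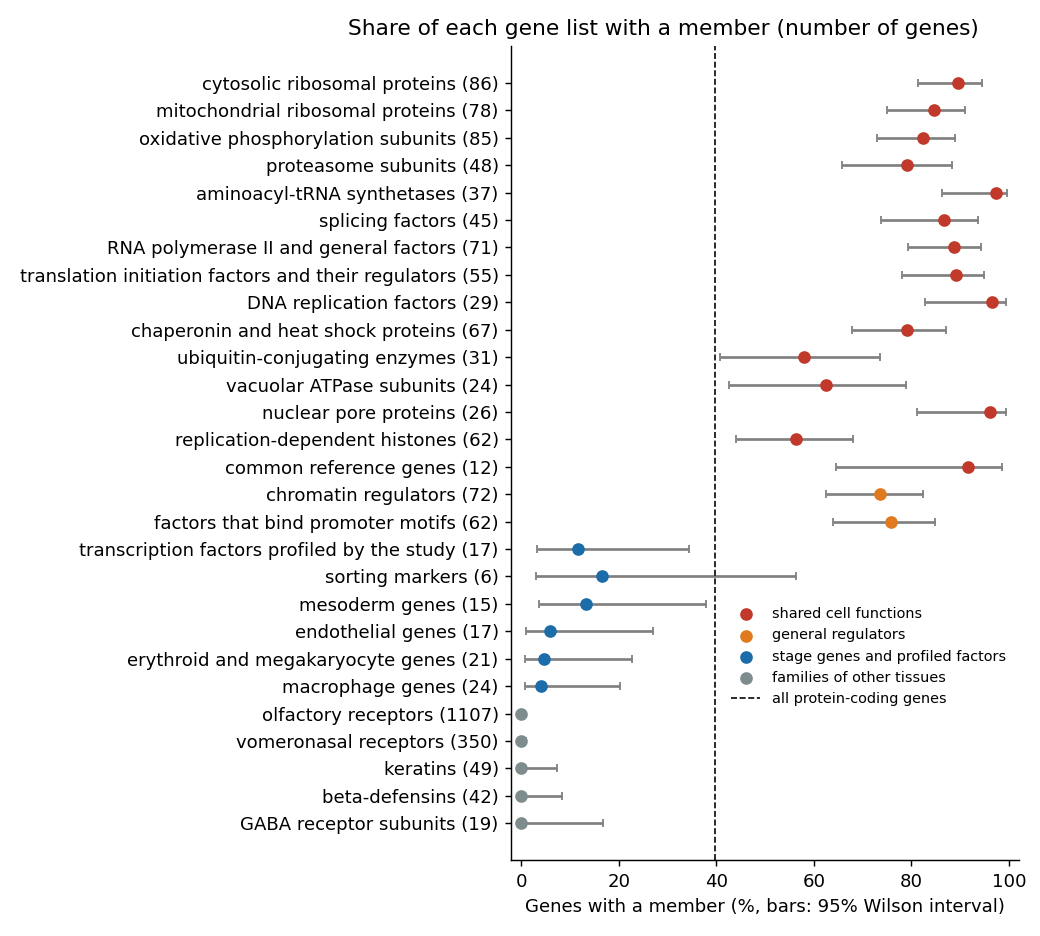
Share of the genes of each of 28 lists that have a member (percent, with 95% Wilson intervals and the number of genes in parentheses), with a dashed line at the 39.7% of all protein-coding genes. The lists of shared cell functions and general regulators lie at 56.5 to 97.3%, the stage genes and profiled factors at 4.17 to 16.7% and the families of other tissues at 0%.

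Examples from these lists show the widths at single genes. At Aars, the alanyl-tRNA synthetase, the site was 1200, 1300, 1800, 1200 and 1200 bp wide from MES to MAC. At Psma1, a subunit of the proteasome core, the widths were 1200, 1400, 1700, 1200 and 1300 bp in the same order. At Cdc6, which loads the replicative helicase, they were 1000, 1300, 1500, 1000 and 900 bp, and at Mrpl10, a protein of the mitochondrial ribosome, 1100, 1200, 1500, 1200 and 600 bp. Median widths over the members of each of these lists were 900 to 1150 bp in MES and 600 to 1100 bp in MAC, the lowest value in MAC being that of the histones, against 1100 and 900 bp over all members.

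Motifs were counted in the 14 lists with at least 20 members, which gave 252 shares with no test. The interval lay above the share of all members in 23 of them, below it in 7 and across it in 222. ETS, in 12.6% of all members, was above it in the nuclear pore (7 of 25 members, 28.0%, 14.3 to 47.6%), RNA polymerase II and general factors (17 of 63, 27.0%, 17.6 to 39.0%), the proteasome (10 of 38, 26.3%, 15.0 to 42.0%), splicing factors (10 of 40) and mitochondrial ribosomal proteins (21.5%). YY1 was in 16 of 70 members of oxidative phosphorylation subunits (22.9%, 14.6 to 33.9%) and 13.8% of mitochondrial ribosomal proteins, against 6.16% of all members. ZBTB33 was in 12 of 77 members of cytosolic ribosomal proteins (15.6%, 9.15 to 25.3%), against 2.36% of all. E2F was in 8 of 28 members of DNA replication factors (28.6%, 15.2 to 47.1%), against 7.90% of all. AP1 was in 9 of 38 members of the proteasome (23.7%, 12.99 to 39.2%), against 5.52% of all, and GATA in 13.8% of mitochondrial ribosomal proteins. The histones had a TATA box in 10 of 23 members (43.5%, 25.6 to 63.2%), against 5.01% of all, and a GATA match in 6 of 23 (26.1%, 12.6 to 46.5%), against 5.77% of all. Of the 7 shares below, 4 were of SP/KLF and 3 of NFY, such as NFY in 15.6% of cytosolic ribosomal proteins and SP/KLF in 45.7% of oxidative phosphorylation subunits.

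Regulators of transcription were also frequent. Chromatin regulators had a member in 53 of 72 genes (73.6%) and the factors that bind the promoter motifs in 47 of 62 (75.8%). The latter included Sp1, Gabpa, Nrf1, Yy1, Nfya, Creb1, Usf1, Zbtb33, Thap11, E2f4 and Ctcf. At Nfya, the sequence-reading subunit of NFY, the site was 1400, 1500, 2000, 1500 and 1500 bp wide from MES to MAC, and its promoter, shared with Oard1, held an NFY match. At Sp4 the widths were 1900, 1900, 2200, 1700 and 1500 bp, while Zbtb33 had 600, 900, 1500, 700 and 700 bp. E2f2, E2f5, E2f6 and Elk3 were among those that lacked a member.

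Genes of the sorted populations and of blood development mostly lacked a member, though some had promoter regions in several stages. It was present for 2 of 17 profiled transcription factors, 1 of 6 sorting markers, 2 of 15 mesoderm genes, 1 of 17 endothelial genes, 1 of 21 erythroid and megakaryocyte genes and 1 of 24 macrophage genes. With so few, the shares moved with the settings of the rule, over 11.76 to 23.53% of profiled factors, 0 to 33.33% of sorting markers, 0 to 3 of the 15 mesoderm genes, 0 to 5.88% of endothelial genes, 0 to 14.29% of erythroid and megakaryocyte genes and 4.17 to 8.33% of macrophage genes, below the share of all genes in all 14 settings. The macrophage genes had a promoter region in 87.5% of cases in MAC and in 8.33 to 16.7% in the other stages. The endothelial genes had one in 88.2% in HE and in 23.5 to 47.1% in the others.

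Of the stage genes and profiled factors with a member, Kdr, Gata4, Tbx6, Klf1 and Lmo2 had their narrowest site in MAC, as did 60.9% of all members. Kdr, which encodes the VEGF receptor FLK1, had a site of 800, 1200, 1700, 800 and 300 bp from MES to MAC. At Gata4, a cardiac and endodermal GATA factor, the widths were 900, 1500, 1500, 700 and 200 bp, and at Tbx6, a factor of paraxial mesoderm, 1200, 1300, 1500, 1000 and 300 bp. The Tbx6 region lay 1063 bp upstream of its TSS in an exon outside the coding part, and held 4 CpGs in 500 bp. Cd68, a lysosomal protein of macrophages, had 1100, 900, 1400, 900 and 1100 bp and held 7 CpGs. The Klf1 region was centred 1277 bp inside the gene in a coding exon, with widths of 1100, 1300, 1500, 1000 and 700 bp, so it is not at the TSS of this erythroid factor. At Lmo2 the widths were 1600, 1300, 1900, 1000 and 800 bp, and at Elk4 1300, 1500, 1900, 1000 and 1100 bp.

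Several profiled factors came close to the rule. The promoter region of Gata2 was open in every stage but MAC, and that of Tal1 in every stage but MES. At the proximal promoter of Runx1, a region at chr16:92696958-92697918 was open in MES, HE, HP and MAC, while the HB site of 2000 bp had its window in the adjoining region at chr16:92697797-92698296. Runx1 was hence listed in all 5 stages without a member, and its HB site was kept apart by the overlap that the rule requires.

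Genes of other tissues had no member. This held for 0 of 1107 olfactory receptors (up to 0.346%), 0 of 350 vomeronasal receptors (up to 1.09%), 0 of 49 keratins (up to 7.27%), 0 of 42 beta-defensins (up to 8.38%) and 0 of 19 GABA receptor subunits (up to 16.8%), with upper Wilson bounds in parentheses. Over the 14 settings the share reached 0.286% of vomeronasal receptors and 2.04% of keratins, and stayed at 0% for the other families.

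Promoters shared by genes on opposite strands were frequent among the members. Coding TSS of both strands within 1 kb of each other were in reach of 872 members, that is inside 2 kb of the centre (11.7%, 11.0 to 12.4%). The share was 4.05% (3.20 to 5.10%) for promoter regions open in 4 stages, 2.02% in 3, 2.62% in 2 and 2.14% in 1. Among CpG-rich regions within 250 bp of a TSS, it was 13.1% (12.2 to 14.0%) of members and 4.78% (3.61 to 6.29%) of regions open in 4 stages. In 780 members the genes pointed away from each other, with a median gap of 145 bp between the TSS (quartiles 74 and 291 bp). Named pairs were Gabpa, the DNA-binding subunit of an ETS factor, with Atp5j, a subunit of ATP synthase (gap 102 bp), Sdha, of succinate dehydrogenase, with Ccdc127 (77 bp), and Nfya with Oard1 (180 bp). At Gabpa and Atp5j the site was 1200, 1400, 1900, 1200 and 1000 bp wide from MES to MAC. A noncoding TSS on the other strand lay within 1 kb upstream of the nearest coding TSS in 7.88% of members (7.29 to 8.52%). For promoter regions open in 1 to 4 stages this share was 6.40% (5.92 to 6.93%). It was counted in another way than the coding pairs, so the 2 kinds of share cannot be compared.

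Genes with several promoters had a member at one of them more often than at several. Of 1346 genes with curated TSS over 5 kb apart, 584 had a member (43.4%). The other promoters of these genes numbered 688, of which 90 (13.1%, 10.8 to 15.8%) were also members, 298 (43.3%) were open in 1 to 4 stages and 300 (43.6%) had no listed region. Among 1101 genes with exactly 2 promoters, the member was at the upstream one alone in 288, at the downstream one alone in 128, at both in 80 and at neither in 605 (54.95%). Elf1 had it at the upstream promoter and Ets1 at the downstream one, both being ETS factors. Lmo2 and Ywhaz had none at their upstream promoter in any stage, and the upstream promoter of Ets1 was open in HB and HE. Nfyc had members at 2 of its 3 promoters, with 66 CpGs at one and 7 at the other.

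The 848 CpG-poor members (11.4%) had a median of 20 CpGs, against 44 in the others, and lay beyond 1 kb more often (6.49 against 0.966%). They held a TATA box in 10.8% of cases against 4.26%, NFY in 31.6 against 26.9%, and ETS in 5.90 against 13.5%. Median widths were 1000, 1200, 1600, 1000 and 800 bp in MES, HB, HE, HP and MAC, against 1100, 1200, 1700, 1100 and 900 bp in the CpG-rich members. Of the 23 histone members 13 were CpG-poor (56.5%), such as H3c7 with 8 CpGs and H1f3 with 14. Gapdh, with 22 CpGs, was the only CpG-poor one among the 11 members at common reference genes.

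Members were unevenly spread over the chromosomes. With olfactory and vomeronasal receptor genes left out, 36.4% (chromosome 6) to 50.6% (chromosome 8) of the coding genes on each autosome had a member. The X chromosome had 201 of 895, or 22.5% (19.9 to 25.3%), and the Y chromosome 2 of 77. Fewer X-linked genes had any promoter region (46.8%), and of those that did 48.0% had a member, against 52.1 to 64.3% on the autosomes. The labels give no sex or karyotype for the line. On the X chromosome, the site at Pgk1, a glycolytic enzyme, was 900, 1200, 1600, 1100 and 800 bp wide from MES to MAC, and that at Hprt, of purine salvage, 600, 1000, 1400, 600 and 700 bp.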

How the data were processed

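DNase I digestion of sorted cells, fragment selection and sequencing were done by the authors, who trimmed reads, aligned them with Bowtie to mm10 and called sites with DFilter on unique reads. The labels' processing notes also name HOMER, and versions are not given in the sources used here. The deposited lists hold the other kind of value, the start and end of each site on a grid of 100 bp, with no score or count, and MAC Rep1 and Rep2 are given as 1 list. The members and gene lists were chosen with earlier results of these data known.

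Windows of 500 bp around site middles were chained where they shared at least 25% of their length. TSS were those of curated RefSeq mRNAs of protein-coding genes within 2 kb, on GRCm38.p6. Sequence was read from the same build. Shares have 95% Wilson intervals and medians order-statistic intervals. No test was made, since each stage has 1 list. The scripts (Python 3.11.15, pandas 2.3.3, numpy 2.4.6, scipy 1.17.1, pysam 0.24.0) were tested on simulated data. Genes were named by rule: all members of 4 short lists, the first in alphabetical order of the other lists, the 3 members relatively widest in each stage, the 5 widest and 5 narrowest in all, and the 3 largest spans. Some items that these rules name are not reported here. Other genes given as examples of a list were chosen after their values were seen. Overlap, distance, TSS set, site width, required stages and windows were varied in turn.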

Additional observations from a re-analysis of the deposited data

How the results depend on the processing

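The number of members stayed within 1.5 times of 7471 in every alternative, from 5468 to 8274. The share of coding genes with a member was 42.04, 40.96 or 43.43% when HE, HP or MAC was not required, 40.5% with the TSS of all transcripts, 36.18% with an overlap of 250 bp, 42.76% with deposited intervals, 38.12% when all windows had to share a base, 38.89% within 1 kb, 35.21% with the nearest TSS alone, 29.86% with sites at or above their list's median width and 32.84% with the widest sites, cut to as many as HP had. The CpG-rich share was 86.69% without requiring MAC, 86.68% with all TSS, 85.93% with deposited intervals, 92.06 and 90.99% with the wider and the widest sites, 85.87% in 200 bp and 80.77% under the stricter definition. The median distance was 91 bp with the larger overlap, 155 bp with deposited intervals, 80 bp with all TSS, and 94 bp with a shared base or the wider sites. With the wider or the widest sites, median widths were 1300 bp (HB), 1700 bp (HE), 1200 bp (HP) and 1000 bp (MAC). They were 1700 bp in HE with deposited intervals, and 1000 bp in MES when HE, HP or MAC was not required. Both strands were in reach of 10.76% without requiring MAC, 12.82% with all TSS, 14.1 and 13.12% with the wider and the widest sites and 10.4% within 500 bp. Second promoters were members in 8.316 and 10.13% with the wider and the widest sites. The cause of these shifts was not tested, and no other value for these results moved beyond its interval. Of the motif shares, 197 of 234 stayed within their intervals and the 18 in a central 200 bp were all lower, such as SP/KLF at 37.34%, ETS at 7.01% and GATA at 1.67%, and of the shares of gene lists 315 of 364 stayed. Histones fell below the share of all genes with the wider (19.35%) and widest (32.26%) sites, while the other 16 lists of shared functions and regulators stayed above it in all 14 settings. No paired analysis was possible because each stage has 1 list. Read totals were not used here, so how many sites depth left unlisted in each stage is not given.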

Other observations

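The GABA receptor subunits, genes of neurons, had no member, but 10 of the 19 had a promoter region in some stage. The share open was 31.6% in MES, 31.6% in HB, 36.8% in HE and 0% in HP and MAC, against 57.0, 58.5, 61.0, 49.9 and 50.3% of all coding genes from MES to MAC. These promoters were thus listed in MES, HB and HE alone. Of 49 keratins 6 had a promoter region in some stage, with 12.2% open in HE and 0% in MAC. The 14 of 15 mesoderm genes with a promoter region were open in 86.7% of cases in MES and in HB, 73.3% in HE, 46.7% in MAC and 33.3% in HP, the percentages being of all 15 genes. Promoter regions open in MAC alone were CpG-rich in 10.6% of 1391 cases (9.13 to 12.4%), below the 26.2% (20.4 to 33.0%) of the 183 open in HP alone and the 41.4 to 45.8% of those open in MES, HB or HE alone, and their median distance to the TSS was 888 bp. These values come from 1 list per stage and were not tested.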
